A study of Drosophila melanogaster with 6 samples.

Results

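The 150 genes described here were the lowest on a single array, that of wild type replicate 1, when it was set against the mean of wild type replicates 2 and 3. They were chosen from 11982 genes, each read by its brightest probe set that named a single gene, and symbols beginning with Cyp, Ugt, Gst, Jon, Mal-, Npc2, Alp or Obp were passed over. That step left out 9 genes which lay within the same range, 5 of them maltase genes (Mal-A1, Mal-A2, Mal-A3, Mal-A4 and Mal-A6). The choice used the wild type arrays and not the mutant-labelled arrays. The differences among the wild type arrays are therefore given as a description, with no test, and so is the position of the members on the mutant-labelled arrays relative to them. Counts of members called between the groups stand beside the share of all genes called, and nothing is read from them.

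RNA from entire instar 1 larvae of Drosophila melanogaster was hybridised to 6 Affymetrix arrays, 3 labelled as Pof mutant and 3 labelled as wild type. The series title gives the allele as Pof D119. Every sample pooled 200 larvae of both sexes, whole, and fewer cells of a type and less RNA per cell cannot be told apart in such a pool. The labels give neither the nature of the mutation, nor the stocks, nor hours since hatching, nor feeding state. The groups share no stated treatment.

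An instar is the stage between moults of the cuticle. A newly hatched larva starts to feed, and its gut then secretes proteases, lipases and other enzymes into a lumen lined by the peritrophic matrix, a mesh of chitin and chitin-binding proteins. The epidermis and tracheae build the next cuticle before each moult. Because these programmes follow each other within hours, the age and feeding of a pool of larvae are known to affect gut and cuticle transcripts.

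Deposited values are on a log2 scale, so a difference of 1 is a 2-fold change. Pof, the gene named in the labels, had 8.35, 8.44 and 8.43 on the mutant-labelled arrays, against 6.74, 6.83 and 6.82 on the wild type arrays. Its signal was thus higher under the mutant label, and directions below rest on the labels, which this probe set cannot check without knowing what the allele removes. Over all probe sets, wild type replicates 2 and 3 differed by an SD of 0.13, and each differed from wild type replicate 1 by 0.43. That array had 302 genes over 2-fold above the other wild type arrays and 13 over 2-fold below. Among the markers of 10 tissues, epidermis and cuticle and tracheal genes had median differences of 0.82 and 0.72 on wild type replicate 1, while the medians of the remaining 8 lists lay between -0.21 for midgut and 0.07 for muscle, with 2 to 5 genes measured per list. For the array's eIF-4a, GAPDH and actin controls the mean 3' minus 5' difference was 1.28, 2.03 and 1.20 on mutant-labelled replicates 1 to 3, against 1.37, 1.42 and 1.48 on the wild type arrays.

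The differences that define the 150 genes were modest. Wild type replicate 1 lay below the mean of replicates 2 and 3 by between 1.74 and 0.56, with a median of -0.66, against a median of -0.04 over all genes. Of the 150, 11 lay at least 2-fold lower, the remaining 2 of the 13 genes being maltase genes. The 150 genes at the opposite end lay higher by 2.11 to 7.78, with a median of 3.27. Unlike for the members, no symbols were passed over in taking that set. At the limit of the list, CG4377 and CG14657 were the last inside, both at -0.56. The first outside were PVRAP and Lrch, also at -0.56, so the limit separates no natural group.

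The gene furthest down on wild type replicate 1 was CG6283, of the pancreatic-type lipase family. CG6283 had 7.07, 7.67 and 7.32 on the mutant-labelled arrays, 7.64 on wild type replicate 1, and 9.38 and 9.37 on wild type replicates 2 and 3. Its 3 mutant-labelled values thus stood beside that of wild type replicate 1, well below the other wild type pair. CG14852 followed, with 6.84, 6.79 and 7.25 on the mutant-labelled arrays, 7.53 on wild type replicate 1, and 8.95 and 8.83 on the other wild type arrays. CG11300 stood the other way, with 11.4, 11.6 and 10.9 on the mutant-labelled arrays, against 9.94 on wild type replicate 1 and 11.4 and 11.0 on replicates 2 and 3. For CG11300 all 3 mutant-labelled values were above wild type replicate 1 and overlapped those of the other pair.

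Next came CG34026 and CG31789, at -1.25 and -1.23. The mutant-labelled values of CG31789 were 10.3, 10.6 and 10.6, on either side of the 10.5 of wild type replicate 1, while wild type replicates 2 and 3 had 11.5 and 12.0. MtnB, which encodes a metal-binding metallothionein, had 8.42, 9.24 and 7.53 on the mutant-labelled arrays, 8.14 on wild type replicate 1, and 9.45 and 9.20 on the other wild type arrays. The mutant-labelled arrays differed among themselves on MtnB by more than the wild type arrays did. Drs, the antifungal peptide drosomycin, had 7.36, 9.50 and 8.0 on the mutant-labelled arrays, against 7.35, 7.49 and 9.27 on wild type replicates 1 to 3. Drs was thus high on 1 array of each group, and its place in the list rested on wild type replicate 3.

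**Figure D1:**
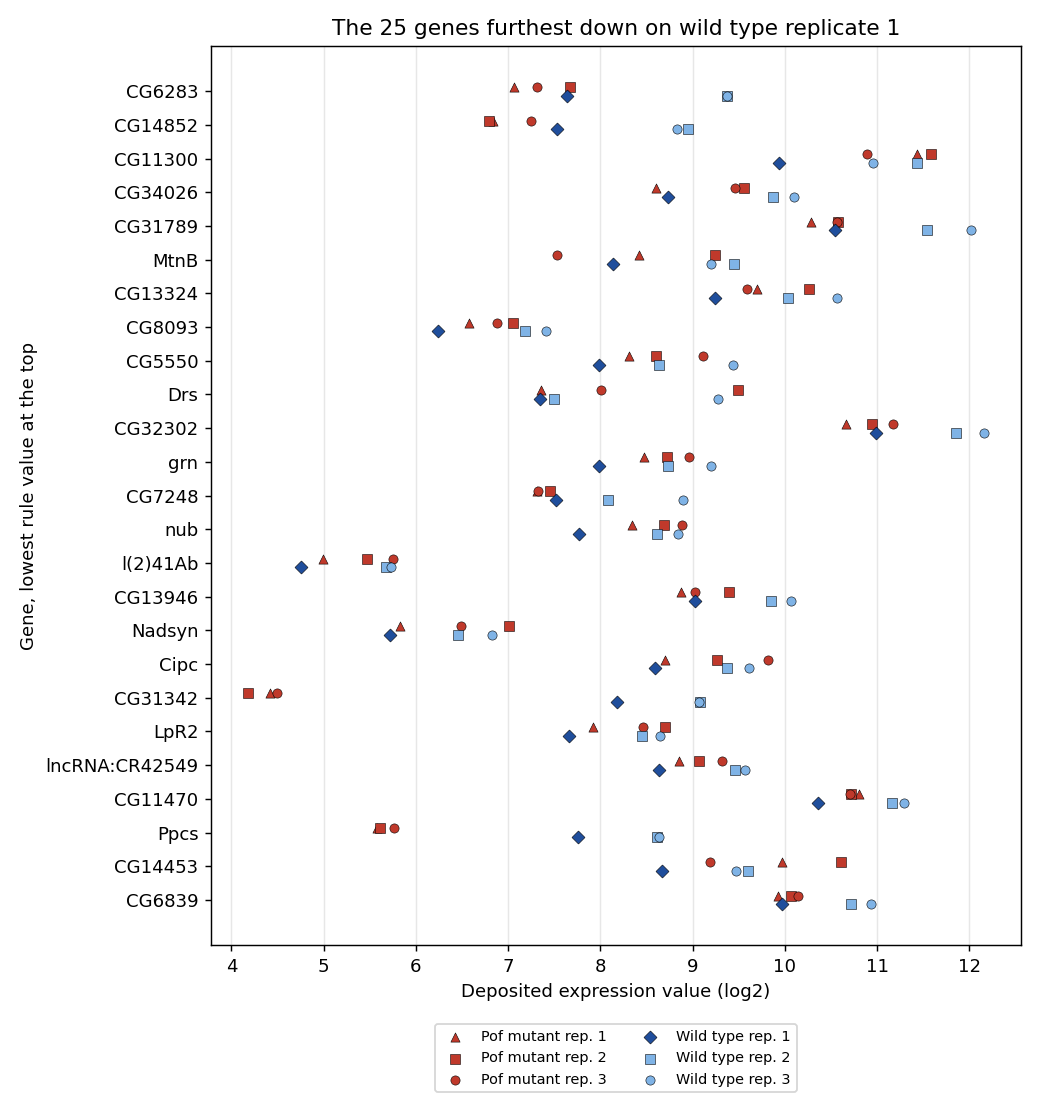
Deposited log2 values of the 25 genes with the most negative difference between wild type replicate 1 and the mean of replicates 2 and 3, 1 row per gene, with the mutant-labelled arrays in red and the wild type arrays in blue. For genes such as CG6283 and CG31789 the red points stand near the dark diamond of wild type replicate 1, for nub and LpR2 they reach the paler points of replicates 2 and 3, and for CG31342 and Ppcs they lie far below all wild type points.

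Drs was not alone in resting on 1 of the wild type pair. For 5 members (Drs, CG6271, Acbp6, Sgs7 and CG4377), wild type replicate 2 was less than 0.3 above wild type replicate 1 or below it. Acbp6, of the acyl-CoA-binding protein family, had 9.14, 9.49 and 9.74 on the mutant-labelled arrays, 8.15 on wild type replicate 1, and 8.26 and 9.54 on wild type replicates 2 and 3. Sgs7, a salivary glue protein gene known from larvae near pupariation, had 6.04, 5.67 and 5.73 on the mutant-labelled arrays, against 5.44, 5.71 and 6.64 on wild type replicates 1 to 3. The wild type pair differed by over 0.5 on 10 members, or 6.67%, against 0.234% of all genes. Wild type replicate 3 was the higher of the pair for 116 members, or 77.3%, against 37.3% of all genes.

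On the mutant-labelled arrays, most members lay between the wild type levels or near the upper one. All 3 mutant-labelled values were above wild type replicate 1 for 107 members, or 71.3%, against 37.7% of all genes. They were all below it for 13 members, or 8.67%, against 20.5% of all genes. The mean of the mutant-labelled arrays was nearer to wild type replicates 2 and 3 than to replicate 1 for 105 members and nearer to replicate 1 for 45. By the rule, a member starts low on wild type replicate 1 and high on the other pair, so a place between them is where most unrelated values would also fall, and nothing is read from these counts. Over the members, the median of the mutant-labelled mean was 0.49 above wild type replicate 1, and its median difference from the mean of replicates 2 and 3 was -0.20.

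**Figure D2:**
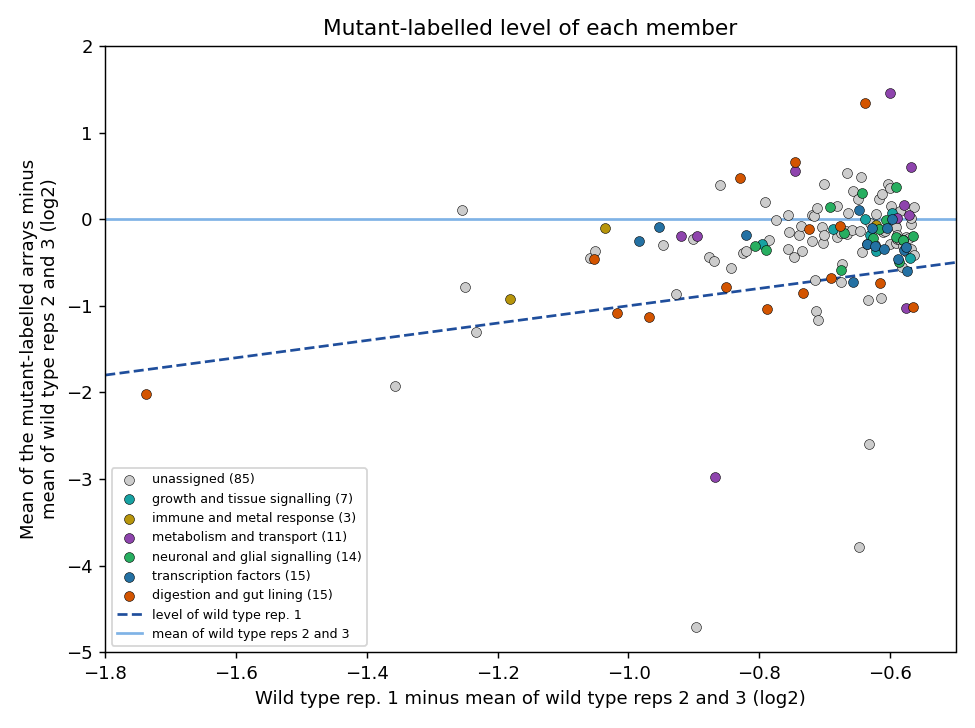
Each point is 1 of the 150 genes; the horizontal axis is its difference between wild type replicate 1 and the mean of replicates 2 and 3, and the vertical axis is the mean of the mutant-labelled arrays minus the mean of wild type replicates 2 and 3, both in log2. Points on the dashed line equal wild type replicate 1 and points on the pale line equal replicates 2 and 3; 105 members are nearer the pale line, and the 4 lowest points are CG31342, CG40298, Ppcs and CG5181.

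Roles were assigned by hand from general knowledge to 65 of the 150 members, after their values had been seen, and the groups formed this way are described without a test. The role groups were digestion and gut lining (15 genes), transcription factors (15), neuronal and glial signalling (14), metabolism and transport (11), growth and tissue signalling (7), and immune and metal response (3). Of the 85 without a role, most are known by a CG number alone. The genes named below as examples of a group were picked with their values in view.

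The digestive and gut lining members included 3 lipases of the pancreatic type, the annotated lipase CG8093, the serine proteases Ser6 and Phae2, and the aspartic protease Bace. They also held the endonuclease family members CG3819 and CG6839, the alpha-mannosidase LManIII, the chitin-binding proteins CG32302, CG7248 and CG32284, the mucin Muc55B and the midgut gene mex1. On the mutant-labelled arrays 9 of these 15 were nearer to wild type replicate 1 and 6 nearer to replicates 2 and 3, whereas 59.8% of all genes were nearer to replicates 2 and 3. Their median difference between the mutant-labelled mean and the mean of wild type replicates 2 and 3 was -0.73, against -0.20 for the 150 members and 0.02 for all genes. Members, unlike all genes, were chosen to be high on that pair, which favours a negative difference.

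CG32302, with the chitin-binding domain found in peritrophic matrix proteins, had 10.7, 10.9 and 11.2 on the mutant-labelled arrays, 11.0 on wild type replicate 1, and 11.9 and 12.2 on the other wild type arrays. CG7248, of the same kind, had 7.31, 7.46 and 7.32 on the mutant-labelled arrays, 7.52 on wild type replicate 1, and 8.08 and 8.90 on replicates 2 and 3. Muc55B had 10.04, 10.62 and 10.53 on the mutant-labelled arrays, 10.5 on wild type replicate 1, and 11.1 and 11.4 on the other pair. For all 3 genes the mutant-labelled values lay below both values of that pair.

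Phae2 was nearly level with wild type replicate 1, having 8.51, 8.56 and 8.67 on the mutant-labelled arrays, 8.57 on wild type replicate 1, and 9.20 and 9.32 on the others. Bace, an aspartic protease known from the larval gut, had 8.10, 8.22 and 8.06 on the mutant-labelled arrays, against 8.24, 8.60 and 9.11 on wild type replicates 1 to 3. LManIII had 5.59, 5.72 and 6.36 on the mutant-labelled arrays, 6.34 on wild type replicate 1, and 6.81 and 7.0 on the other arrays. These enzyme genes did not approach the upper wild type pair on any mutant-labelled array.

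A few digestive members went the other way. Ser6 had 9.09, 9.39 and 9.46 on the mutant-labelled arrays, 7.92 on wild type replicate 1, and 8.51 and 8.81 on wild type replicates 2 and 3. CG32284, a further chitin-binding gene, had 10.9, 11.3 and 11.0 on the mutant-labelled arrays, 9.79 on wild type replicate 1, and 10.6 and 10.7 on the other pair. For both genes the groups did not overlap. The midgut gene mex1 matched the upper pair, with 10.7, 10.9 and 11.0 on the mutant-labelled arrays, 10.3 on wild type replicate 1, and 10.8 and 11.1 on replicates 2 and 3.

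The pancreatic-type lipases are neighbours on chromosome arm 3R and differed in pattern. In the reference assembly the run reads CG6295, CG17192, CG17191, CG6283, CG6277 and CG6271. CG6277 had no probe set naming it alone, and probe sets of such close copies can share signal. CG6295 had 8.31, 8.30 and 7.83 on the mutant-labelled arrays, against 6.17 on wild type replicate 1 and 6.79 and 6.84 on replicates 2 and 3. At the far end, CG6271 had 5.58, 5.62 and 5.49 on the mutant-labelled arrays, 5.81 on wild type replicate 1, and 5.6 and 7.60 on replicates 2 and 3. CG6271 was thus high on wild type replicate 3 alone.

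Between them, CG17191 is no member and was flat over the wild type arrays. CG17191 had 6.23, 6.96 and 6.02 on the mutant-labelled arrays, against 4.88, 5.0 and 4.73 on the wild type arrays. It was called higher by limma, by 1.53 (adjusted p = 0.0158). Its wild type values were dim, below the lower quartiles of those arrays (5.11 to 5.16). Whether they lay above background is unknown, so the size of this difference is uncertain. CG17192 had 6.23, 5.90 and 5.96, against 5.94, 5.84 and 6.0, with no call (adjusted p = 0.772). Of the 5 measured genes of the run, CG6295 and CG17191 were thus called higher on the mutant-labelled arrays and none was called lower. Over all genes 2.65% were called higher and 1.44% lower. For CG6283 and CG6271 the groups overlapped.

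**Figure D3:**
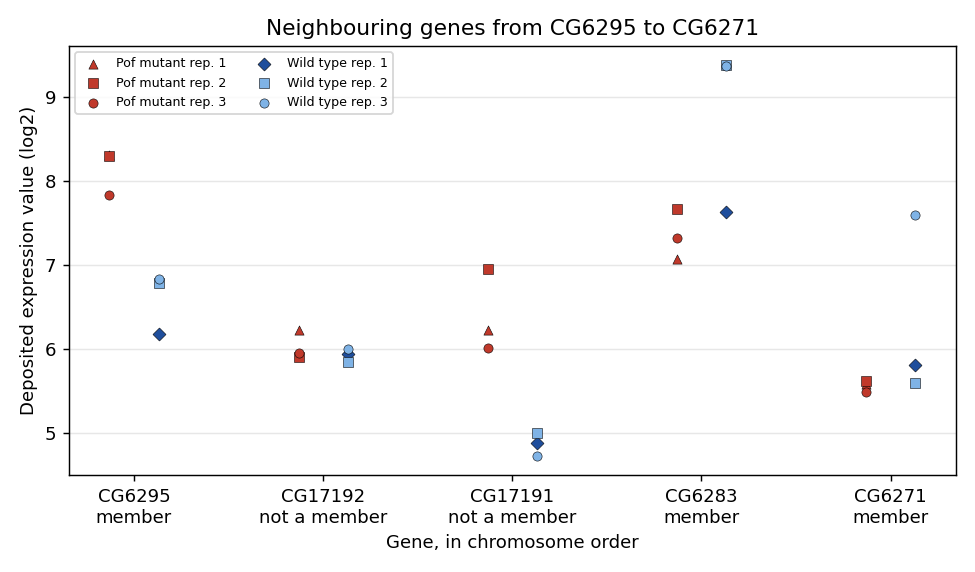
Deposited log2 values on the 6 arrays for the 5 measured genes from CG6295 to CG6271, in chromosome order, mutant-labelled arrays in red at the left of each gene and wild type arrays in blue at the right. CG6295 and CG17191 are higher on all mutant-labelled arrays, CG6283 is high on wild type replicates 2 and 3 alone, and CG6271 on wild type replicate 3 alone.

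Other neighbouring pairs were also both members. CG13323 and CG13324, next to each other on 2R, were lower on wild type replicate 1 by 0.76 and 1.06 (differences -0.76 and -1.06). Their mutant-labelled means differed from wild type replicates 2 and 3 by little in one gene and by more in the other: CG13323 had 7.66, 7.88 and 7.78 on the mutant-labelled arrays, 6.96 on wild type replicate 1, and 7.57 and 7.86 on the pair. CG13324 had 9.69, 10.3 and 9.59 on the mutant-labelled arrays, 9.24 on wild type replicate 1, and 10.04 and 10.57 on the pair. The endonuclease genes CG6839 and CG3819 on 3L flank CG18223, which was level across the arrays. CG6839 had 9.92, 10.1 and 10.1 on the mutant-labelled arrays, 9.97 on wild type replicate 1, and 10.7 and 10.9 on the others, whereas CG3819 had 11.7, 11.8 and 11.6, then 11.1, and then 11.7 and 11.9 in the same order. CG6839 thus stood with wild type replicate 1, and CG3819 with the upper pair.

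Lists of digestive genes differed in how they stood on wild type replicate 1, on which 59.4% of all genes lay lower. In the lists, 3 of 4 measured midgut markers lay lower with a median of -0.21, and 3 of 6 genes of lipases and lipid uptake did, with a median of -0.10. The 5 maltase genes passed over by their prefix lay between -1.28 (Mal-A1) and -0.76 (Mal-A3). They are no such list, being the maltase genes that lay within the range of the members, and any others are not given. Of 10 genes of amylases and other carbohydrate digestion 5 lay lower (median 0.06), and of 3 lysozyme genes 0 did (median 0.08). Between the groups, limma called LManI and LManII of these 10 higher, by 1.36 and 1.38, and 0 lower. The member LManIII, of the same list, was not called. Of the 6 genes of lipases and lipid uptake, mag was called lower (-1.23) and 0 higher. Over all genes 2.65% were called higher and 1.44% lower. No midgut marker or lysozyme gene was called. Of 15 trypsin-type serine protease genes in a list drawn up for the larval midgut, 8 lay lower on that array, with a median difference of -0.002, and Ser6 was the member. Between the groups 1 of these rose (betaTry) and 1 fell (yip7) on the mutant-labelled arrays, against 2.65% and 1.44% of all genes. Of 14 peritrophin and mucin genes 6 lay lower on wild type replicate 1, with Muc55B the member, and the median was 0.08. None of these 14 was called by limma. Without adjustment 0 were higher and 2 lower with p under 0.05, against 10.5% and 6.31% of all genes. Muc91C lay 2.34 higher on that array, so genes of this class stood at both ends.

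The transcription factor members were of several tissues. The list held the GATA factors grn and srp, srp being known for fat body and blood cells, and the heart factor Hand. It also held the POU factor nub, the homeodomain factors Dr, exex and onecut, the glial factor repo, the ecdysone-response gene br, Mitf, REPTOR-BP, sens-2, sqz, lov and Cf2. All 3 mutant-labelled values were above wild type replicate 1 for 12 of these 15, and for 7 of the 15 all lay below both of the other wild type values. A place below both held for 51 of the 150 members, or 34.0%, and for 15.2% of all genes. Members were chosen to be high on that pair, which favours such a place, so nothing is read from these counts. The mutant-labelled mean was nearer to wild type replicates 2 and 3 for 9 of them and nearer to replicate 1 for 6.

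Among them, grn had 8.48, 8.72 and 8.97 on the mutant-labelled arrays, 7.98 on wild type replicate 1, and 8.74 and 9.20 on the pair. The gene nub had 8.34, 8.70 and 8.88 on the mutant-labelled arrays, 7.77 on wild type replicate 1, and 8.61 and 8.84 on the pair. Hand had 8.20, 8.32 and 8.41 on the mutant-labelled arrays, 7.67 on wild type replicate 1, and 8.44 and 8.55 on the pair. In each case the mutant-labelled arrays were clear of wild type replicate 1. By contrast srp had 7.83, 7.90 and 8.33 on the mutant-labelled arrays, on either side of the 8.09 of wild type replicate 1, while the pair had 8.64 and 8.85. REPTOR-BP, the partner of a factor known from the response to low TORC1 activity, had 11.1, 11.7 and 11.4 on the mutant-labelled arrays, 11.1 on wild type replicate 1, and 11.7 and 11.8 on the pair.

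Neuronal and glial members covered channels, receptors, vesicle release and surface recognition. They were the potassium channel gene Sh, the acetylcholine receptor subunit nAChRbeta1, the serotonin receptor 5-HT2A, the dopamine transporter DAT, the sensory channel ppk and the chloride channel alka. With them were Rph, Cadps and lap, which act in vesicle traffic, the prohormone convertase amon, the surface proteins dpr18, DIP-zeta and beat-Ia, and the astrocyte gene alrm. Of the 14, 12 had a mutant-labelled mean nearer to wild type replicates 2 and 3 and 2 (Rph and Cadps) nearer to replicate 1. The mean was above wild type replicate 1 for all 14, and for 86.0% of the 150 members, which were chosen to be low on that array. Over all genes that share was 61.1%.

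The gene amon had 8.32, 9.04 and 8.57 on the mutant-labelled arrays, 7.70 on wild type replicate 1, and 8.37 and 8.32 on the pair. The gene alrm had 9.99, 10.2 and 10.1 on the mutant-labelled arrays, 9.12 on wild type replicate 1, and 9.82 and 9.61 on the pair, so its groups did not overlap. Several members of this group were dim, and DAT had 5.07, 5.42 and 5.24 on the mutant-labelled arrays, 4.73 on wild type replicate 1, and 5.42 and 5.40 on the pair. Without detection calls it is unknown whether such values lay above background. Of 12 neuronal genes in a separate list, among them elav, brp and VAChT, 9 lay lower on wild type replicate 1, against 59.4% of all genes, with a median difference of -0.15, and none was a member. None of the 12 was called between the groups by limma, against 4.09% of all genes. Without adjustment 0 were higher and 2 lower with p under 0.05, against 10.5% and 6.31% of all genes.

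Of the metabolic and transport members, 9 of 11 had all mutant-labelled values above wild type replicate 1. That held for 71.3% of the 150 members, which were chosen to be low on that array, and for 37.7% of all genes. LpR2, a lipophorin receptor, had 7.92, 8.70 and 8.46 on the mutant-labelled arrays, 7.66 on wild type replicate 1, and 8.45 and 8.65 on the pair. Galk, a galactokinase, had 8.89, 8.91 and 8.96 on the mutant-labelled arrays, 8.30 on wild type replicate 1, and 8.87 and 8.88 on the pair. The ammonium transporter gene Rh50 lay higher than every wild type array, with 8.91, 9.17 and 8.61 on the mutant-labelled arrays, against 7.72, 8.38 and 8.21. CG13248, of an amino acid transporter family, lay lower, with 6.81, 7.43 and 7.24 on the mutant-labelled arrays, against 7.61, 8.20 and 8.17. Of 17 genes in a list of amino acid transport, 15 lay lower on wild type replicate 1, against 59.4% of all genes, with a median of -0.09. Between the groups 0 of them rose and 1 (JhI-21) fell, against 2.65% and 1.44% of all genes.

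All 7 growth and tissue signalling members had a mutant-labelled mean above wild type replicate 1, as had 86.0% of the 150 members and 61.1% of all genes. They were the JNK kinase gene hep, the Ras pathway genes sty and Sur-8, the Hippo pathway gene ex, the palmitoyltransferase gene app, the activin ligand gene Actbeta and the G protein gene Galphaq. The gene hep had 7.66, 8.39 and 7.84 on the mutant-labelled arrays, 7.33 on wild type replicate 1, and 7.94 and 7.99 on the pair. Actbeta had 7.28, 7.98 and 7.70 on the mutant-labelled arrays, 7.53 on wild type replicate 1, and 8.08 and 8.12 on the pair. On both genes mutant-labelled replicate 2 was the highest of its group and replicate 1 the lowest.

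The same order of the mutant-labelled arrays recurred across the list, in values that the choice of members did not use. Mutant-labelled replicate 1 was the lowest of the 3 for 109 members, or 72.7%, against 31.5% of all genes. Replicate 2 was the highest for 91 members, or 60.7%, against 34.5% of all genes. Over the members, replicate 1 lay below the mean of replicates 2 and 3 with a median difference of -0.33, against 0.02 over all genes. Replicate 1 was below replicate 2 for 129 members and below replicate 3 for 122. Those are 86.0% and 81.3% of members, against 46.5% and 45.0% of all genes. With 1 array behind each value these are descriptions of single arrays.

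**Figure D4:**
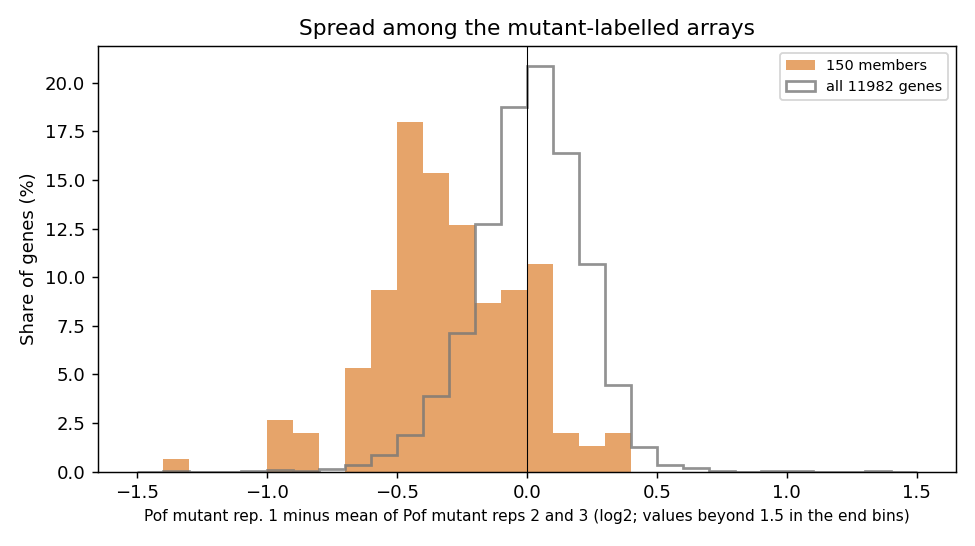
Share of genes in percent by the difference between mutant-labelled replicate 1 and the mean of mutant-labelled replicates 2 and 3 in log2, for the 150 members (filled) and all 11982 genes (line). The members are shifted to the left, with a median of -0.33 against 0.02.

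Measured from each gene's own mean over the 6 arrays, the members' median was -0.21, 0.17 and 0.03 on mutant-labelled replicates 1 to 3, against -0.48, 0.15 and 0.30 on wild type replicates 1 to 3. Over all genes these medians lay between -0.04 and 0.03. Mutant-labelled replicate 1 was thus the next lowest array after wild type replicate 1, and mutant-labelled replicates 2 and 3 lay below wild type replicate 3. Both of the lowest arrays carry the same replicate number. Whether same-numbered samples were handled together is not in the labels and was not tested. The 150 genes highest on wild type replicate 1 did not share the order: mutant-labelled replicate 1 was the lowest for 26% of them and replicate 2 for 55.3%. The control 3' minus 5' difference was also the largest on mutant-labelled replicate 2, at 2.03, and its part in the order was not tested. With that array left out, an alternative added with the data in view, replicate 1 was below replicate 3 for 122 of the 150, against 45.0% of all genes. This is the count already given above. A gene lowest on replicate 1 among all mutant-labelled arrays stays lowest when another is left out. The count could thus only stay at 109 or rise, and nothing is read from it.

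**Figure D5:**
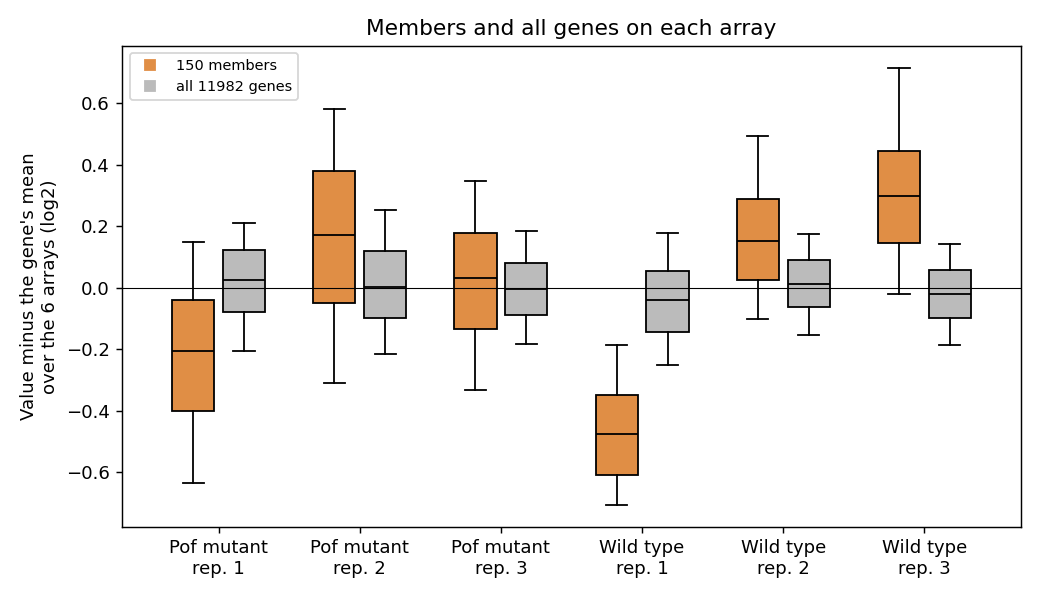
Value of each gene minus its own mean over the 6 arrays (log2), for the 150 members (orange) and all 11982 genes (grey); lines are medians, boxes the quartiles and whiskers the 10th to 90th percentiles. The orange boxes lie lowest on wild type replicate 1 (median -0.48) and next on mutant-labelled replicate 1 (-0.21), while the grey boxes stay near 0.

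The members were also longer genes than the rest. Their median gene length in the reference annotation, introns included, was 3740 bases, against 2263 over all genes and 1125 for the 150 genes highest on wild type replicate 1. The groups of role differed: medians were 1415 bases for digestion and gut lining, 9095 for transcription factors and 11269 for neuronal and glial signalling. Of the 150 members, 68 were among the longest 25% of all genes and 37 among the shortest 25%. Length went with the order of the mutant-labelled arrays too, replicate 1 being the lowest for 40.9% of all genes in the longest class and 23.1% of those in the shortest. Among members those shares were 80.9% and 54.1%, so the shift was present at both ends, and the part of gene length in it was not tested.

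Chromosome 4, which the Pof protein is known to bind, carried 5 of the 150 members, or 3.33%, against 0.542% of all genes. Membership was set on the wild type arrays alone, so nothing about Pof is read from this share. The 5 were the ubiquitin ligase gene Rnf11, Cadps, Mitf, onecut and Actbeta. Rnf11 ranked 52 in the list, while the others ranked from 127 to 142, close to its limit, so the share depends on the length of the list. Rnf11 had 8.74, 9.06 and 9.15 on the mutant-labelled arrays, 8.97 on wild type replicate 1, and 9.63 and 9.74 on the pair. The gene onecut had 7.38, 8.44 and 8.0 on the mutant-labelled arrays, 7.96 on wild type replicate 1, and 8.49 and 8.58 on the pair. For all 5 the 3 mutant-labelled values lay below both values of that pair, as they did for 34.0% of the 150 members and 15.2% of all genes, and the pair is the one on which members were chosen to be high. They lay on either side of wild type replicate 1 for all but Mitf, whose values were all above it, and none was called between the groups. The other arms held shares of members within 4 percentage points of their shares of all genes.

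Between the groups as labelled, limma called 6 of the 150 members, or 2 higher and 4 lower, against 4.09% of all genes called in either direction (2.65% higher and 1.44% lower). Without adjustment, 13 members were higher and 20 lower with p under 0.05, or 8.67% and 13.3%, against 10.5% and 6.31% of all genes. The wild type arrays of this fit are those the members were chosen on, which widens their spread, and nothing is read from the counts. Values of the 3 arrays of a group all lay above those of the other for 13 members on the mutant-labelled side, or 8.67%, against 14.5% of all genes. They all lay below for 12 members, or 8.0%, against 7.95% of all genes.

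The 4 members called lower are described by their values alone, without their p-values, since the wild type arrays chose them. Their mutant-labelled values, 4.18 to 5.76, were dim, the lower quartile of the arrays being 5.11 to 5.24, and it is unknown whether they lay above background, so the sizes of these differences are uncertain. CG31342 had 4.41, 4.18 and 4.50 on the mutant-labelled arrays, against 8.18, 9.08 and 9.07 on wild type replicates 1 to 3 (log2 difference -4.41). CG40298 had 5.27, 5.46 and 5.37 on the mutant-labelled arrays, against 8.51, 9.03 and 9.28 (-3.57). CG5181 had 4.94, 5.53 and 5.39 on the mutant-labelled arrays, against 7.25, 7.76 and 8.0 (-2.38). The probe set of Ppcs, a gene of coenzyme A synthesis, had 5.58, 5.61 and 5.76, against 7.76, 8.62 and 8.64 (-2.69). The second Ppcs probe set differed by -0.11 between the groups and by 0.20 between wild type replicate 1 and the pair, so neither the lower value nor the membership of Ppcs was shared by its probe sets.

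The 2 members called higher were CG6295, with a log2 difference of 1.55, and CG10560, with 1.65. CG10560, of the ecdysteroid kinase-like family, had 9.58, 9.79 and 9.81 on the mutant-labelled arrays, against 7.67, 8.40 and 8.14 on the wild type arrays. For both genes the groups did not overlap. When wild type replicate 1 was left out, 27 members were called by limma, against 4.47% of all genes. Of these, 3 were higher and 24 lower (2.0% and 16.0% of members), against 2.6% and 1.88% of all genes. The remaining wild type arrays are the ones on which the members were chosen to be high, so that count has a baseline fixed by the choice and nothing is read from it.

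Members with other known cellular roles took different positions on the mutant-labelled arrays, without a call. Klp98A, a kinesin gene, had 8.30, 8.85 and 8.58 on the mutant-labelled arrays, against 7.44, 8.11 and 8.06 on the wild type arrays. Damm, a caspase gene, had 7.16, 7.66 and 7.36 on the mutant-labelled arrays, against 6.20, 6.72 and 7.0. The piRNA pathway gene piwi had 5.21, 5.95 and 5.84 on the mutant-labelled arrays, against 4.56, 5.33 and 5.20, so its groups overlapped. The gene mle, which encodes a helicase of the male dosage compensation complex, had 6.70, 7.47 and 6.99 on the mutant-labelled arrays, 6.44 on wild type replicate 1, and 7.14 and 7.15 on the pair. CanA-14F, a calcineurin catalytic subunit, stood with wild type replicate 1, at 6.99 on each mutant-labelled array, 7.04 on that array, and 7.72 on each of the pair.

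For 19 members a further 33 probe sets named the gene alone, and 23 of these also lay lower on wild type replicate 1, with a median difference of -0.08. Of the 33, 31 were less negative than the probe set that stood for the gene. The exceptions were a second probe set of unk, at -0.86 against -0.82, and one of Rnf11, at -0.76 against -0.71, whereas those of br and Sh lay between -0.37 and 0.12. The second probe set of CanA-14F lay at -0.04, those of hep at -0.17 and -0.14, and that of sty, with a mean level of 9.96, at -0.03. Further probe sets of Galphaq lay at -0.59 and -0.10. The low value on wild type replicate 1 was thus absent or smaller on the further probe sets of br, Sh, CanA-14F, hep and sty. It was shared by those of unk and Rnf11. All of these further probe sets were dimmer by construction, since the brightest one stood for the gene.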

How the data were processed

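Total RNA of 6 samples was read on Affymetrix arrays. The authors deposited 1 log2 value per probe set and array, computed with RMA, per the submitters' processing notes; the sources used here give no version or settings. RMA as usually run makes array distributions alike and compresses dim differences. No detection calls were used, and the number of arrays limits precision. Of 18952 probe sets, 183 controls were left out, leaving 18769; 13647 named 1 gene, 402 several and 4720 none. Symbols, chromosome arms, order and lengths came through gene IDs (13544 matched) from a RefSeq table (assembly Release 6 plus ISO1 MT). All probe sets were fitted in limma 3.58.1 (R 4.3.3), mutant-labelled minus wild type, without covariates, with Benjamini-Hochberg adjustment over all of them; an adjusted p under 0.05 is a call. The procedure was tested on simulated data. The p-values measure the spread between samples that the labels call biological replicates. Members, lists and roles were chosen with earlier results of these data known. Named genes were the 25 most negative members, up to 3 per list, 6 called members, those nearest wild type replicate 1 or highest above the pair, and those at the limit; any further names were picked with values in view. Alternatives were leaving out each array, the replicate number as a block, filters, further normalization, trended variances and other summaries of probe sets.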

Additional observations from a re-analysis of the deposited data

How the results depend on the processing

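Leaving out arrays mattered most. The count of members called by limma, 6 with all arrays, was 27 without wild type replicate 1 and lay between 5 and 27 over the arrays left out in turn; the median member difference, 0.02 with all arrays, lay between -0.20 (without wild type replicate 1) and 0.19. Over all 11982 genes, limma called 490 with all arrays and 536 without wild type replicate 1. Over the arrays left out in turn it called 202 to 536. The replicate number as a block gave 15 calls among members (6 higher and 9 lower), against 476 among all genes. Members were chosen on the wild type arrays, so nothing is read from these counts. The deviations of same-numbered arrays from their group means correlated with r = 0.18, 0.13 and 0.03. Mutant-labelled replicates 1 and 3 correlated best with the wild type array of their own number, but the values of replicate 3 lay between -0.01 and 0.03. Mutant-labelled replicate 2 correlated best with wild type replicate 3, at 0.15 against 0.13 for wild type replicate 2. Deviations from a group's own mean cancel within that group, which constrains these correlations, so nothing is read from them. The main fit did not pair the samples by number, and whether same-numbered samples were handled together was not tested. An adjusted p under 0.10 gave 10 calls among members, against 723 among all genes. Other filters and normalizations gave 6 or 7, against 480 to 542 among all genes. Members nearer to wild type replicates 2 and 3 numbered 83 to 115 over the settings tried, against 105. Of the 150 genes, 102 were also chosen against wild type replicate 2 alone, 125 against replicate 3 alone or after cyclic loess, and 122 to 141 under the other choices of probe sets, normalization and prefixes. Leaving out single mutant-labelled arrays for the counts above wild type replicate 1 (108 to 127, against 107), and mutant-labelled replicate 2 for the count lowest on replicate 1 (122, against 109), was added after the data were seen. Such counts can only stay or rise when an array is left out, so nothing is read from these alternatives.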
